A study of Mus musculus with 16 samples.

Results

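The glucocorticoid receptor gene Nr3c1 and 9 genes known as its targets (Fkbp5, Tsc22d3, Sgk1, Zbtb16, Plin4, Map3k6, Cdkn1a, Pdk4 and Arrdc2) were followed in mouse brain after an injection of bacterial lipopolysaccharide (LPS) or saline. The members were chosen by symbol, with earlier results of these data known. Each symbol was matched to its Ensembl ID in the deposited expression table. All 10 were among the 33289 gene IDs measured, and all 10 were among the 17349 genes that passed the filter on low values and were tested.

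RNA was sequenced in 16 hemi-brain samples of C57BL/6J mice, aged 3 to 4 months and perfused with PBS, 8 hours after the injection. There were 4 libraries in each of 4 groups: wild type after saline, Lcn2-/- after saline, wild type after LPS and Lcn2-/- after LPS. LPS, also called endotoxin, sets off an innate immune response, and the Lcn2 product lipocalin-2 is an iron-carrier-binding protein released in inflammation. The LPS dose and route, how the Lcn2 allele was made and whether the wild type mice were littermates are not given in the labels.

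The glucocorticoid receptor is a transcription factor held in the cytoplasm by a chaperone complex built on Hsp90. When it binds corticosterone, the main glucocorticoid of mice, it moves to the nucleus and binds response elements, paired palindromic half-elements separated by a short spacer, near the genes it switches on. Inflammation is known to activate the hypothalamic-pituitary-adrenal axis, which releases corticosterone, and many cell types of the brain carry the receptor. Corticosterone values are not used here.

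Values are deposited log2 RPKM (reads scaled by gene length and by library size, here after conditional quantile normalization), printed as RPKM, with differences on the log2 scale ± standard error. Adjusted p-values are two-sided, from limma with Benjamini-Hochberg adjustment over all 17349 genes, with 4 libraries against 4 in each group, and a gene is called where the adjusted p is under 0.05. Gene positions are those of GENCODE vM21 on GRCm38. Replicate numbers only name libraries within a group. The labels do not state that each sample is a separate mouse, so p-values cover the spread among these samples alone, part of which may be technical. The table gives no counts, and the depth behind each value is unknown.

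Lcn2 itself lay between 0.0650 and 0.204 RPKM in the wild type saline libraries and between 66.7 and 82.7 RPKM after LPS. In the libraries labelled Lcn2-/- it lay between 0.132 and 0.351 RPKM after saline and between 34.1 and 40.2 RPKM after LPS, so transcript was measured there, and that genotype is called by its label throughout. Whether the reads come from the deleted stretch cannot be told from a value per gene. One library, labelled Lcn2-/- saline replicate 4, stood apart, with 17112 genes at or above 0.5 RPKM against 16372 to 16497 in the other 15. Values without it are given for Sgk1 and Zbtb16, whose levels it moved most among the members, and for the count of called interactions.

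The labelled tissue matched its markers: in every library the summed level was at least 508 RPKM for astrocyte and at least 135 RPKM for microglia markers, and neuron and oligodendrocyte markers were higher still. In bulk tissue, fewer cells of a type and less RNA per cell cannot be told apart.

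Promoter windows of Sgk1 and Map3k6 hold a full response element, and they are shown because this is the sequence the receptor recognises. The element searched was GNACA, any 3 bases, then TGTNC, which is its own reverse complement and so covers both strands, and it was looked for in RefSeq promoter windows (GRCm38.p6) of 300 bases, from 250 before to 50 after each start. It was present in 156 of 32851 windows (0.475%) and in 145 of 27025 symbols (0.537%). Among the members, 8 had at least 1 window, 16 windows in all, and 2 windows held the element, one of Sgk1 and one of Map3k6. Nr3c1 and Zbtb16 had no window in the table. In the sequences, printed 5′ to 3′ on the plus strand up to the base before the start, capitals mark the element.
Sgk1, chr10:21993640-21993889: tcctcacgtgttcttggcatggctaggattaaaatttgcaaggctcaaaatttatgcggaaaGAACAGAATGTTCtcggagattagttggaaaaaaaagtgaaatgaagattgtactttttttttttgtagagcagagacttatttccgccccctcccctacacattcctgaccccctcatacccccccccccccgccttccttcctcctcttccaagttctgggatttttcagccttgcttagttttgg
Map3k6, chr4:133240568-133240817: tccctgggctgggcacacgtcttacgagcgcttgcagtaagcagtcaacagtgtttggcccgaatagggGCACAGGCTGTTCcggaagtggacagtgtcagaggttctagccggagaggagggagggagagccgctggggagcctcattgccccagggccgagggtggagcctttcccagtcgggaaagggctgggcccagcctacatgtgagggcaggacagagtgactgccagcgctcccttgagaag
The Sgk1 element lies 188 to 176 bases before the start, at chromosome 10 positions 21993702 to 21993714. This window overlaps no annotated exon but lies inside the span of 5 longer Sgk1 transcripts of GENCODE vM21, in whose introns it therefore falls, and 1 Sgk1 transcript starts at the window's start site. The Map3k6 element lies 181 to 169 bases before the start, at chromosome 4 positions 133240637 to 133240649, where no gene is annotated. A match of letters is not evidence of receptor binding, and no match in the other windows says nothing of elements farther away.

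In wild type brain, LPS moved the receptor and its targets in opposite directions. Nr3c1 fell, and all 9 targets rose, from 1.82-fold for Tsc22d3 to 26.2-fold for Plin4. None of the 10 genes had a saline library within the range of the LPS libraries. Over all tested genes, 25.3% were called, 11.4% higher and 13.9% lower, and the groups did not overlap for 32.4%, 13.8% higher and 18.6% lower. The median log2 change was 1.65 over the members and -0.0249 over all genes.

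**Figure D1:**
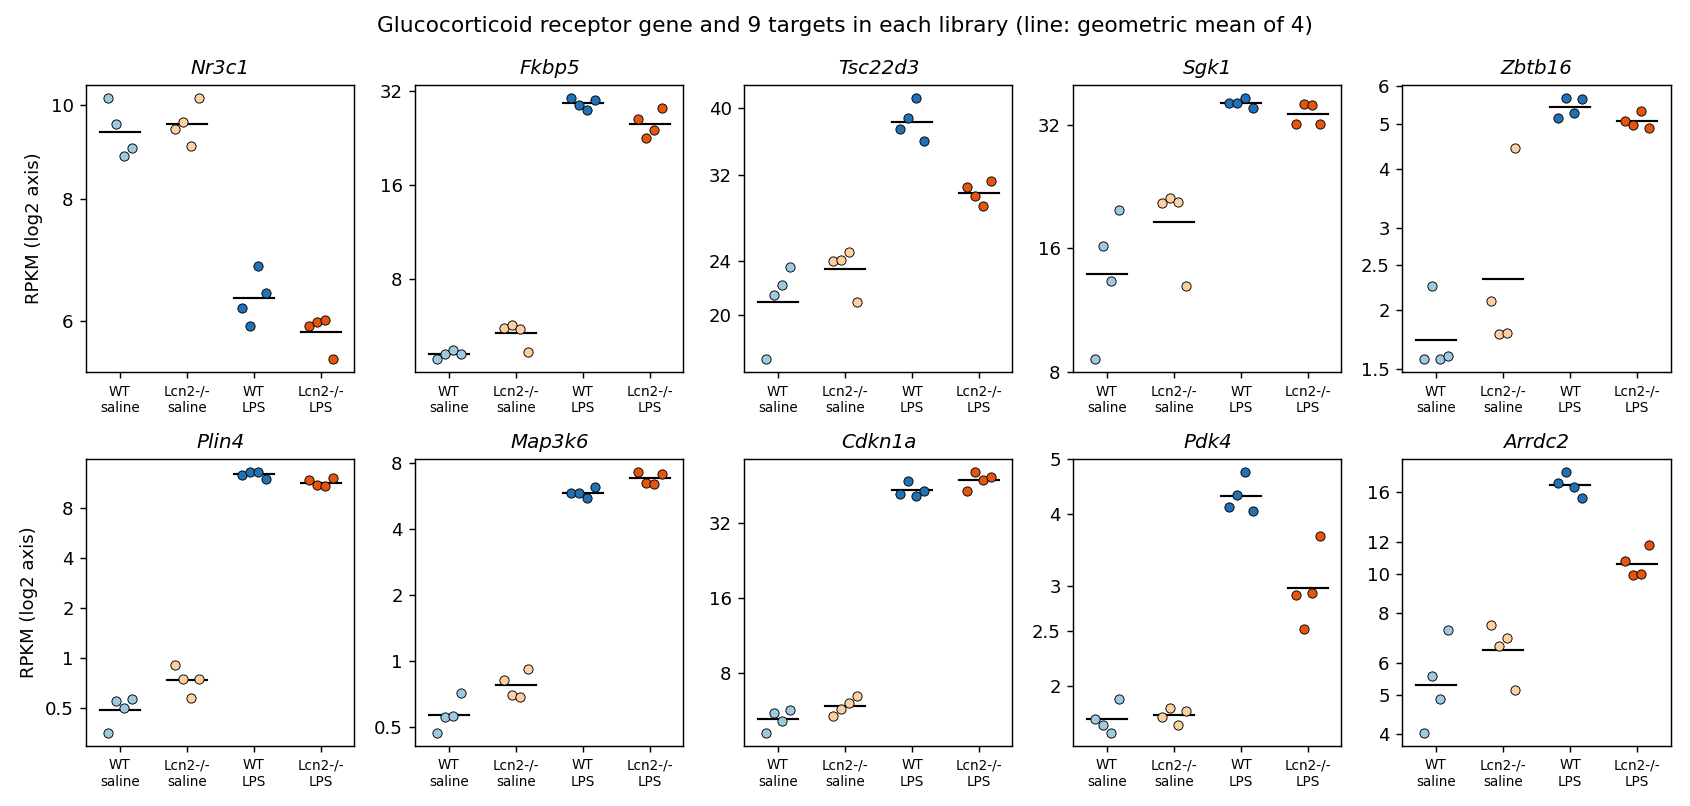
RPKM (vertical axis, log2 scale) of the receptor gene and its 9 targets in each of the 16 libraries (points) of the 4 groups, with the geometric mean of 4 libraries as a line. Nr3c1 is lower in every LPS library than in every saline library of its genotype, and the 9 targets are higher.

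Nr3c1 (ENSMUSG00000024431) encodes the receptor. It was measured at 10.2, 9.55, 8.85 and 9.03 RPKM in the wild type saline libraries and at 6.19, 5.93, 6.83 and 6.41 RPKM after LPS. The log2 change was -0.57 ± 0.055 (adjusted p = 9.3e-07). Every LPS library was below every saline library.

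Fkbp5 (ENSMUSG00000024222, chr17:28399094-28517527, minus strand) encodes a co-chaperone that lowers the hormone affinity of the receptor and closes a feedback loop on it. Its level was 4.42, 4.59, 4.71 and 4.58 RPKM in wild type saline libraries and 30.4, 28.8, 27.9 and 30.0 RPKM after LPS, which is a log2 rise of 2.68 ± 0.067 (adjusted p = 2.1e-13), or 6.39-fold. The saline libraries differed by at most 1.06-fold, the tightest saline group among the targets in wild type brain.

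Tsc22d3 (ENSMUSG00000031431, chrX:140539528-140600659, minus strand) encodes GILZ, a leucine zipper protein that restrains NF-kappaB and AP-1. Wild type libraries held 17.3, 21.4, 22.1 and 23.5 RPKM after saline and 37.3, 38.6, 41.3 and 35.8 RPKM after LPS. The rise was 0.87 ± 0.079 (adjusted p = 4.6e-07), the smallest of the 9 targets on the log2 scale, in the gene with the highest saline level per length among them.

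Zbtb16 (ENSMUSG00000066687, chr9:48654297-48836222, minus strand), a zinc finger transcription factor also called PLZF, was at 1.58, 2.25, 1.58 and 1.60 RPKM in wild type saline libraries and at 5.14, 5.67, 5.27 and 5.63 RPKM after LPS. It rose by 1.65 ± 0.22 on the log2 scale (adjusted p = 2.7e-05). Replicate 2 lay above the other saline libraries, yet well below all LPS libraries.

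Sgk1 (ENSMUSG00000019970, chr10:21882184-21999903, plus strand) encodes a serum- and glucocorticoid-regulated kinase that controls ion channels and transporters. Its saline values in wild type spread widely, at 8.60, 16.2, 13.3 and 19.8 RPKM, whereas the LPS values of 36.2, 36.2, 37.2 and 35.2 RPKM were close together. The highest saline library was 2.31 times the lowest, against 1.06 times among the LPS libraries. Across that spread, the log2 rise was 1.39 ± 0.20 (adjusted p = 6.1e-05).

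Map3k6 (ENSMUSG00000028862, chr4:133240818-133252929, plus strand), a MAP kinase kinase kinase of the ASK family, was at 0.468, 0.551, 0.557 and 0.709 RPKM after saline in wild type and at 5.83, 5.86, 5.55 and 6.24 RPKM after LPS. The log2 rise was 3.38 ± 0.11 (adjusted p = 5.9e-12), or 10.4-fold.

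Plin4 (ENSMUSG00000002831, chr17:56100591-56109803, minus strand) encodes perilipin 4, a coat protein of lipid droplets. It went from 0.354, 0.551, 0.497 and 0.565 RPKM in wild type saline libraries to 12.6, 13.1, 13.1 and 11.95 RPKM after LPS, a log2 rise of 4.71 ± 0.14 (adjusted p = 1.5e-12). Plin4 and Map3k6 start near the filter, and a pseudocount weighs on them most: on log2(RPKM + 0.5) the rises were 3.74 and 2.58.

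Pdk4 (ENSMUSG00000019577, chr6:5483351-5496309, minus strand) encodes a kinase that switches off pyruvate dehydrogenase and so spares glucose. The wild type saline libraries were at 1.75, 1.71, 1.66 and 1.90 RPKM and the LPS libraries at 4.12, 4.33, 4.75 and 4.06 RPKM. It rose by 1.30 ± 0.091 (adjusted p = 2.4e-08).

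Cdkn1a (ENSMUSG00000023067, chr17:29090976-29100727, plus strand) encodes the cell-cycle inhibitor p21, which is also a p53 target. It was at 4.63, 5.55, 5.16 and 5.71 RPKM in wild type saline libraries and at 41.8, 47.0, 41.0 and 42.6 RPKM after LPS, with a rise of 3.04 ± 0.073 (adjusted p = 1.9e-13), or 8.21-fold. After LPS its geometric mean was the highest level per length of the 9 targets.

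Arrdc2 (ENSMUSG00000002910, chr8:70835129-70839720, minus strand) encodes an arrestin-domain protein; such proteins act as adaptors in membrane protein traffic. Wild type values were 4.04, 5.58, 4.89 and 7.26 RPKM after saline and 16.9, 17.99, 16.5 and 15.5 RPKM after LPS. The rise was 1.65 ± 0.14 (adjusted p = 2.7e-07).

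LPS also moved all 10 genes in the brains labelled Lcn2-/-, in the same directions. Here 48.3% of all tested genes were called, 20.7% higher and 27.7% lower, so a call was more common in this comparison, and the groups did not overlap for 42.4% of genes, 18.6% higher and 23.8% lower. The median log2 change was 0.997 over the members and -0.0276 over all genes. Again no saline library of any of the 10 genes fell within the range of the LPS libraries.

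Nr3c1 in these brains was at 9.43, 9.60, 9.06 and 10.2 RPKM after saline and at 5.93, 5.99, 6.02 and 5.49 RPKM after LPS. It fell by 0.71 on the log2 scale (standard error 0.055, adjusted p = 4.7e-08).

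Fkbp5 was at 5.57, 5.68, 5.52 and 4.68 RPKM after saline and at 26.1, 22.7, 24.0 and 28.1 RPKM after LPS, a rise of 2.23 ± 0.067 (adjusted p = 1.1e-12). Tsc22d3 was at 24.0, 24.1, 24.7 and 20.9 RPKM after saline and at 30.7, 29.8, 28.8 and 31.3 RPKM after LPS, a rise of 0.37 ± 0.079 (adjusted p = 0.0013). The Tsc22d3 rise of 1.29-fold was the smallest of the 9 targets, and the receptor's co-chaperone still rose by 4.70-fold.

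Sgk1 stood at 20.7, 21.2, 20.7 and 12.9 RPKM after saline and at 32.2, 35.9, 35.8 and 32.2 RPKM after LPS, a rise of 0.88 ± 0.20 (adjusted p = 0.0018). Zbtb16 stood at 2.09, 1.78, 1.79 and 4.43 RPKM after saline and at 5.06, 4.97, 5.32 and 4.88 RPKM after LPS, a rise of 1.12 ± 0.22 (adjusted p = 0.00056). Saline replicate 4, the library that stood apart, was the lowest of its group for Sgk1 and the highest for Zbtb16. Without it the Sgk1 rise was 0.70 and the Zbtb16 rise 1.43, and both were still called.

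Map3k6 went from 0.815, 0.693, 0.685 and 0.914 RPKM to 7.33, 6.48, 6.44 and 7.14 RPKM, a rise of 3.15 ± 0.11 (adjusted p = 6.5e-12). Cdkn1a went from 5.40, 5.74, 6.08 and 6.51 RPKM to 43.0, 51.1, 47.2 and 48.7 RPKM, a rise of 3.00 ± 0.073 (adjusted p = 1.4e-13). The kinase gene thus rose 8.86-fold, against 10.4-fold in wild type, and the cell-cycle inhibitor 8.01-fold, against 8.21-fold.

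Plin4 went from 0.907, 0.747, 0.571 and 0.743 RPKM to 11.6, 10.9, 10.8 and 11.99 RPKM, a rise of 3.95 ± 0.14 (adjusted p = 4.4e-12). Pdk4 went from 1.77, 1.83, 1.71 and 1.81 RPKM to 2.88, 2.52, 2.91 and 3.67 RPKM, a rise of 0.74 ± 0.091 (adjusted p = 8.4e-06). Arrdc2 went from 7.47, 6.64, 6.94 and 5.15 RPKM to 10.8, 9.98, 10.01 and 11.8 RPKM, a rise of 0.71 ± 0.14 (adjusted p = 0.00076). In fold terms these were 15.4, 1.67 and 1.64, against 26.2, 2.46 and 3.13 in wild type.

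**Figure D2:**
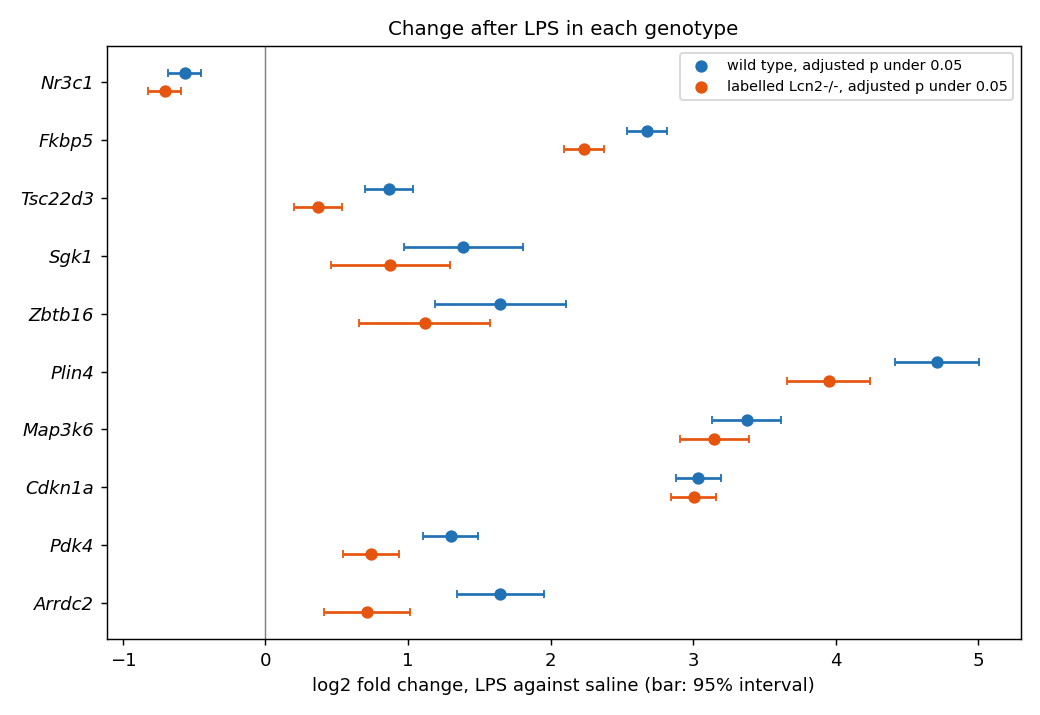
Log2 fold change after LPS (horizontal axis) for the receptor gene and its 9 targets in wild type and in brains labelled Lcn2-/-, with 95% intervals as bars. All 20 changes have an adjusted p under 0.05, and only Nr3c1 lies below 0.

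After saline, none of the 10 genes differed between genotypes at the threshold. All 10 estimates were above 0 (labelled Lcn2-/- minus wild type), from 0.021 ± 0.091 for Pdk4 (adjusted p = 0.94) to 0.60 ± 0.14 for Plin4 (adjusted p = 0.24). Of all tested genes, 0.0461% (8 genes; 0.0346% higher and 0.0115% lower) were called here with limma, while 1897 had an unadjusted p under 0.05. The median was 0.26 over the members and -0.00482 over all genes.

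Plin4 was the single member whose saline groups did not overlap, with 0.565 RPKM in the highest wild type library and 0.571 RPKM in the lowest labelled Lcn2-/- library, and groups did not overlap for 5.19% of all genes, 2.84% higher and 2.35% lower. The estimate for Map3k6 was 0.45 ± 0.11 (adjusted p = 0.27) and for Fkbp5 0.22 ± 0.067 (adjusted p = 0.35). On log2(RPKM + 0.5) the Plin4 estimate was 0.32 and the Map3k6 estimate 0.25. For Sgk1 the estimate was 0.42 ± 0.20 (adjusted p = 0.46), 0.19 without wild type saline replicate 1 and 0.59 without labelled Lcn2-/- saline replicate 4. For Zbtb16 it was 0.43 ± 0.22 (adjusted p = 0.48), and 0.12 without labelled Lcn2-/- saline replicate 4. The remaining estimates were 0.29 ± 0.14 for Arrdc2 (adjusted p = 0.47), 0.17 ± 0.073 for Cdkn1a (adjusted p = 0.44), 0.16 ± 0.079 for Tsc22d3 (adjusted p = 0.47) and 0.026 ± 0.055 for Nr3c1 (adjusted p = 0.87). Without wild type saline replicate 1 the estimates were 0.15 for Arrdc2, 0.11 for Cdkn1a and 0.066 for Tsc22d3. The estimates of Nr3c1 and Pdk4 lay so near 0 that leaving out 1 library could change their sign.

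After LPS, 4 targets were lower in the brains labelled Lcn2-/- and none was called higher. Arrdc2 stood at 63.7% of its wild type level, Pdk4 at 68.9%, Tsc22d3 at 78.9% and Fkbp5 at 86.0%. Over all tested genes 15.8% were called, 7.04% higher and 8.74% lower. The median difference was -0.14 over the members and -0.00975 over all genes.

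Arrdc2 differed by -0.65 ± 0.14 (adjusted p = 0.0071), and its highest labelled Lcn2-/- library, 11.8 RPKM, lay below its lowest wild type library, 15.5 RPKM. Pdk4 differed by -0.54 ± 0.091 (adjusted p = 0.0014), with 3.67 RPKM in its highest labelled Lcn2-/- library against 4.06 RPKM in its lowest wild type one. Tsc22d3 differed by -0.34 ± 0.079 (adjusted p = 0.0094), with 31.3 against 35.8 RPKM. These 3 genes and Map3k6 were the members whose LPS groups did not overlap, beside 28.0% of all genes, 13.3% higher and 14.7% lower.

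Fkbp5 differed by -0.22 ± 0.067 (adjusted p = 0.037), and here the groups overlapped, since labelled Lcn2-/- replicate 4 at 28.1 RPKM lay above wild type replicate 3 at 27.9 RPKM. The Fkbp5 call was lost without any 1 of 6 of the 8 LPS libraries (each wild type one, and labelled Lcn2-/- replicates 2 and 3), at adjusted p from 0.0503 to 0.12. In all, the Fkbp5 call was lost under 8 of 23 alternatives, among them no filter on low values, at 0.056.

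The other 6 members did not pass the test after LPS. Map3k6 was at 0.22 ± 0.11 (adjusted p = 0.20), with every labelled Lcn2-/- library above every wild type library. Cdkn1a was at 0.14 ± 0.073 (adjusted p = 0.21), Plin4 at -0.16 ± 0.14 (adjusted p = 0.45) and Nr3c1 at -0.11 ± 0.055 (adjusted p = 0.17). When only the 2 LPS groups entered the model, Map3k6 and Plin4 were called with the same estimates, at adjusted p of 0.017 and 0.027. Sgk1 was at -0.091 ± 0.20 (adjusted p = 0.79, 95% interval -0.51 to 0.33) and Zbtb16 at -0.10 ± 0.22 (adjusted p = 0.79, interval -0.56 to 0.36), so differences of the size seen in Arrdc2 lie outside both intervals. These intervals pool the spread of all 4 groups, which was wider after saline. The log2 standard deviation of Sgk1 was 0.51 and 0.35 in the saline groups and 0.033 and 0.088 in the LPS groups. For Zbtb16 it was 0.25 and 0.63 after saline and 0.070 and 0.053 after LPS. The intervals thus do not measure the spread of the LPS libraries alone. The lowest limma adjusted p under the alternatives was 0.13 for Sgk1 and 0.14 for Zbtb16.

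**Figure D3:**
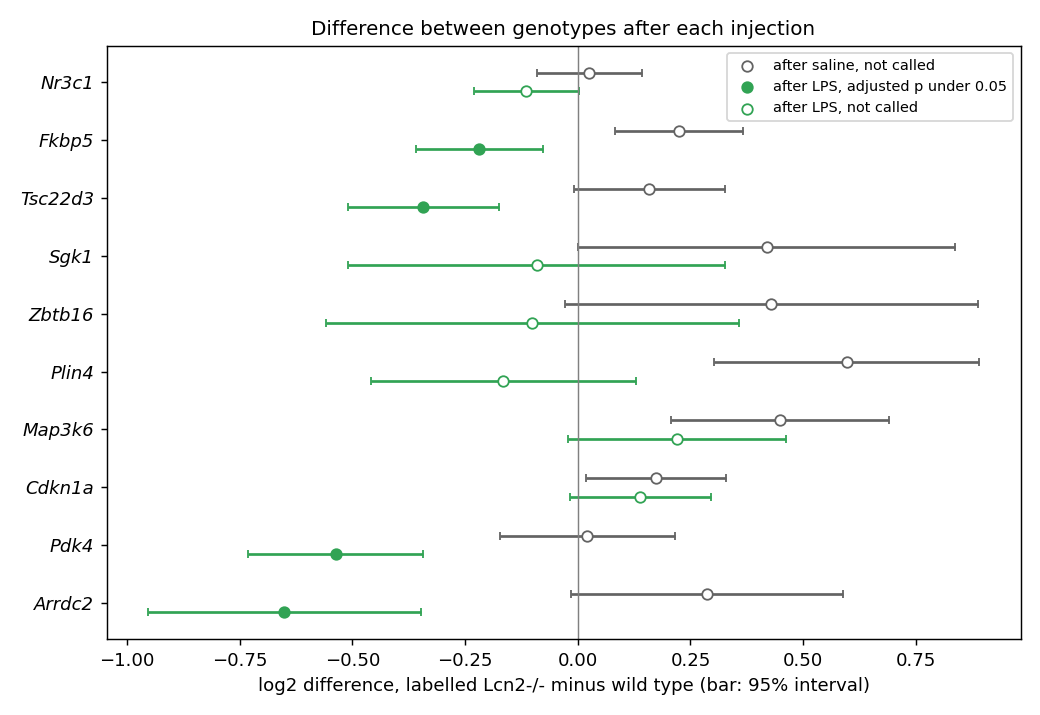
Log2 difference between genotypes, labelled Lcn2-/- minus wild type (horizontal axis), after saline and after LPS for the 10 genes, with 95% intervals as bars and filled points where the adjusted p is under 0.05. All saline estimates lie above 0 and are uncalled, and the filled LPS points are Fkbp5, Tsc22d3, Pdk4 and Arrdc2.

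The interaction asks whether the LPS change itself differed between genotypes. It uses the libraries of all the comparisons above and equals the genotype difference after LPS minus that after saline, so it adds no independent data. All 10 estimates were below 0, so each of the 9 targets had a smaller estimated rise in the brains labelled Lcn2-/-. This was called for 5 of the 9. The fall of Nr3c1 did not differ at the threshold (-0.14 ± 0.077, adjusted p = 0.25). Over all tested genes 8.82% had a called interaction, 3.9% positive and 4.92% negative. The median was -0.51 over the members and -0.00265 over all genes.

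Arrdc2 had an interaction of -0.94 ± 0.20 (adjusted p = 0.014), so that its fold rise was 52.2% of the wild type fold. For Plin4 the value was -0.76 ± 0.20 (adjusted p = 0.028) and 59.0%, and for Pdk4 -0.56 ± 0.13 (adjusted p = 0.018) and 67.9%. Tsc22d3 gave -0.50 ± 0.11 (adjusted p = 0.016) and 70.7%, and Fkbp5 gave -0.44 ± 0.094 (adjusted p = 0.013) and 73.6%.

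The estimates of these 5 interactions divided differently between the LPS and the saline term, but whether the genes differ in this was not tested. The Pdk4 interaction lay almost wholly in the LPS libraries, with -0.54 after LPS and 0.021 after saline. In Plin4 the larger term was the uncalled saline one, with -0.16 after LPS and 0.60 after saline, the latter 0.32 on log2(RPKM + 0.5). Fkbp5 divided evenly, at -0.22 and 0.22. Arrdc2 held -0.65 after LPS and 0.29 after saline, and Tsc22d3 held -0.34 and 0.16.

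The Plin4 call was lost without any 1 of 6 libraries (wild type saline replicate 3, wild type LPS replicates 1, 2 and 3, and labelled Lcn2-/- LPS replicates 2 and 3), at adjusted p from 0.0510 to 0.0606. On log2(RPKM + 0.5) its interaction was -0.48 (adjusted p = 0.018). Of the saline estimates behind these interactions, none was called.

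Cdkn1a had the interaction estimate nearest 0 among the 10 genes, at -0.035 ± 0.10 (adjusted p = 0.85, 95% interval -0.26 to 0.19) and a fold rise that was 97.6% of the wild type one. For Map3k6 the interaction was -0.23 ± 0.16 (adjusted p = 0.36) and the fold rise 85.4%, with an interaction of -0.049 on log2(RPKM + 0.5) and of -0.14 without wild type saline replicate 1. Sgk1 had -0.51 ± 0.28 (adjusted p = 0.24, interval -1.10 to 0.08) and Zbtb16 -0.53 ± 0.30 (adjusted p = 0.26, interval -1.18 to 0.12). The Sgk1 interaction was -0.28 without wild type saline replicate 1 and -0.68 without labelled Lcn2-/- saline replicate 4. Without the latter library the Zbtb16 interaction was -0.22 and that of Map3k6 -0.15, and the 5 called interactions were still called. Without wild type saline replicate 1 these 5 were also still called, with smaller estimates of -0.80 for Arrdc2 and -0.41 for Tsc22d3.

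By geometric mean, all 9 targets ordered from wild type saline up to labelled Lcn2-/- saline and then the LPS groups, with wild type LPS highest except for Map3k6 and Cdkn1a. The saline groups overlapped except for Plin4, the LPS groups overlapped except for Tsc22d3, Map3k6, Pdk4 and Arrdc2, and no saline group overlapped an LPS group of its own genotype. The mean log2 RPKM of the 9 targets was 1.38, 1.76, 1.63 and 1.86 in the wild type saline libraries and 2.02, 1.95, 1.90 and 1.98 in the labelled Lcn2-/- saline libraries. After LPS it was 3.93, 3.99, 3.96 and 3.92 in wild type and 3.76, 3.71, 3.73 and 3.84 in labelled Lcn2-/- libraries. Wild type saline replicate 1 was lowest of its group for 8 of the 9 targets, against 28.9% of all tested genes, and replicate 4 was highest for 7 of the 9, against 22.3%. The ratio of highest to lowest library in wild type saline was 2.31 for Sgk1, 1.80 for Arrdc2 and 1.36 for Tsc22d3, and after LPS it was 1.06, 1.16 and 1.16.

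Genes with the most similar pattern over the 16 libraries were found by the root mean square distance in log2 RPKM after centring each gene on its wild type saline mean. The nearest to Nr3c1 were Hdac9 (0.0732), Ptgis (0.0754) and Lasp1 (0.0809), and the nearest to Fkbp5 were Cp (0.191), Xdh and C5ar1 (both 0.250). Tsc22d3 lay nearest to Cdh19 (0.114), Phactr4 and Gjb6, and Pdk4 nearest to Igfbp7 (0.165), Kirrel2 and Slc25a13. Sult1a1 and Mfsd2a were among the nearest 3 of both Arrdc2 (0.155 and 0.220) and Sgk1 (0.305 and 0.237), and these 2 members lay 0.252 from each other. Osmr, a cytokine receptor subunit, was among the nearest 3 of both Map3k6 (0.297) and Cdkn1a (0.268). Cdkn1a lay closest to Ifitm3 (0.200), Zbtb16 to Setdb2 (0.261) and Plin4 to Ch25h (0.344), an enzyme that makes an oxysterol.

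A list of 25 other genes known to be induced by glucocorticoids largely rose after LPS. Over all tested genes, 11.4% were called higher in wild type and 20.7% in the brains labelled Lcn2-/-. In wild type 21 were called higher and 1 lower, with a median log2 change of 0.72, and in the brains labelled Lcn2-/- 19 were called higher and 0 lower, with a median of 0.59. The largest rises in wild type were those of Angptl4, an inhibitor of lipoprotein lipase, at 3.53 ± 0.13, and the transcription factor Cebpd, at 2.99 ± 0.16. Dusp1, a MAP kinase phosphatase, was the 1 gene that fell, by 0.43 ± 0.14 (adjusted p = 0.033). Slc1a2, the main astrocyte glutamate transporter, was called in neither the wild type LPS comparison nor the genotype comparison after LPS.

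Between genotypes after LPS, 5 of these 25 were called higher and 3 lower, beside 7.04% and 8.74% of all tested genes. After saline none was called, though 22 estimates were above 0. Higher in the brains labelled Lcn2-/- after LPS were Nfkbia, the NF-kappaB inhibitor, at 0.49 ± 0.11 (adjusted p = 0.0082), and Nedd9, a scaffold protein, at 0.47 ± 0.083 (adjusted p = 0.0018), with Foxo1, Per1 and Errfi1. Lower were the sulfotransferase gene Sult1a1 at -0.54 ± 0.12 (adjusted p = 0.0058) and the transcription factor Klf15 at -0.27 ± 0.076 (adjusted p = 0.028), with Glul. The list's median difference was 0.04. Its called genes thus lay on both sides. All 4 called members were lower, but members and lists were chosen with earlier results of these data known. That choice could shape a contrast between them, so none is drawn.

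The interaction was called negative for 6 of the 25 (Sult1a1, Klf15, Klf9, Hif3a, Mertk and Glul) and positive for Foxo1. Over all tested genes it was called negative for 4.92% and positive for 3.9%. Values were -0.88 ± 0.24 for Hif3a (adjusted p = 0.033), -0.75 ± 0.16 for Sult1a1 (adjusted p = 0.014), -0.57 ± 0.14 for Klf9 (adjusted p = 0.026) and -0.55 ± 0.11 for Klf15 (adjusted p = 0.0091). Foxo1 had 0.40 ± 0.086 (adjusted p = 0.015). The median interaction of the list was 0.00, and that of the 10 members, chosen with earlier results of these data known, was -0.51. In the promoter windows, 2 of the 21 listed genes with a window, Mt1 and Fam107a, held the response element.

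**Figure D4:**
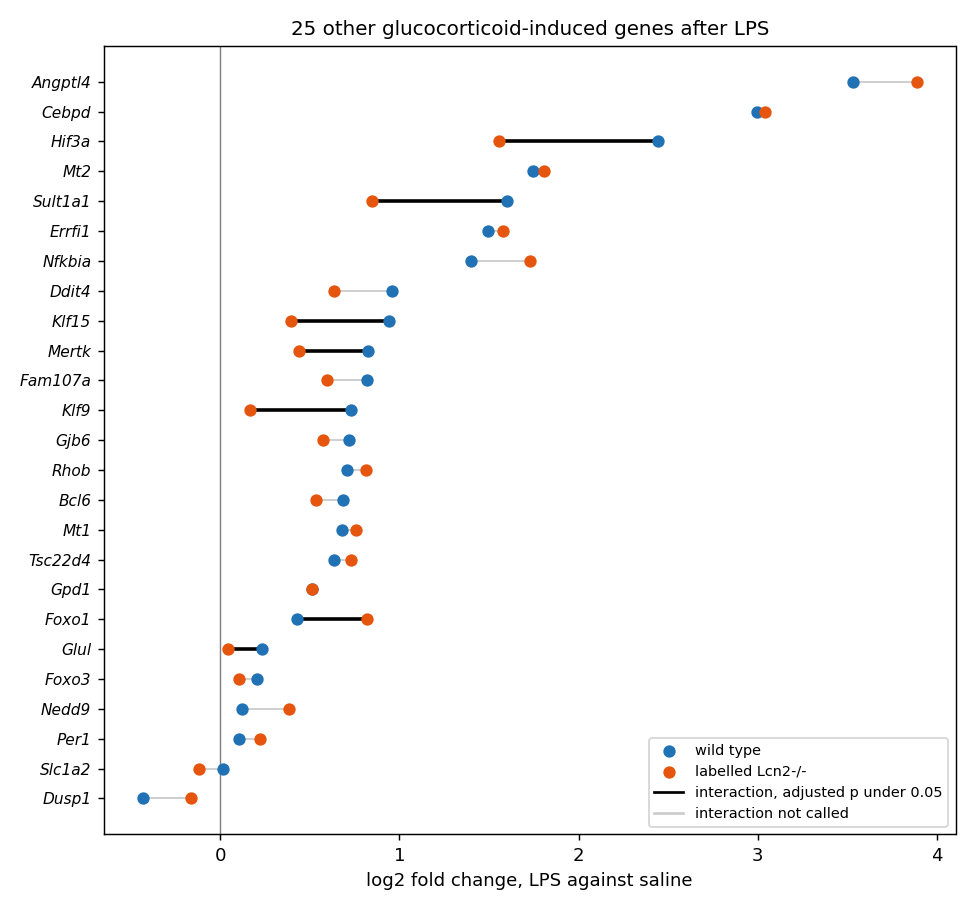
Log2 fold change after LPS (horizontal axis) of 25 other glucocorticoid-induced genes in wild type (blue) and in brains labelled Lcn2-/- (orange), joined by a black line where the interaction has an adjusted p under 0.05. Of the 7 black lines, 6 have the orange point to the left, and Foxo1 has it to the right.

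Counts for the chaperones that hold the receptor are given beside the shares over all tested genes. Of 12 chaperones of the receptor complex, 0 were called higher and 1 lower in wild type after LPS, namely Fkbp4, the co-chaperone that Fkbp5 competes with, at -0.20 ± 0.046 (adjusted p = 0.0048). In the brains labelled Lcn2-/-, 5 were called higher after LPS, among them Hsp90ab1 at 0.11 (adjusted p = 0.0044), and 1 lower, where 48.3% of all genes were called, against 25.3% in wild type. Between genotypes after LPS, 1 chaperone was called higher and 0 lower, beside 7.04% and 8.74% of all tested genes. It was Fkbp4, higher in the brains labelled Lcn2-/- by 0.15 ± 0.046 (adjusted p = 0.044). No chaperone had a called interaction, beside 8.82% of all tested genes, so no difference between the LPS comparisons is drawn.

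The coregulator list holds 11 genes, of which Sgk3 is a kinase related to Sgk1 and no coregulator. Over all tested genes, 11.4% were higher and 13.9% lower after LPS in wild type, and 7.04% and 8.74% between genotypes after LPS. In wild type after LPS 4 were called higher and 1 lower, led by Sgk3 at 1.94 ± 0.071 and Nrip1, a corepressor, at 0.34 ± 0.082, with Ncoa3, a coactivator, at -0.27 ± 0.047. After LPS, Sgk3 was lower in the brains labelled Lcn2-/- by -0.35 ± 0.071 (adjusted p = 0.0041), as was the acetyltransferase gene Ep300 at -0.16 ± 0.047 (adjusted p = 0.033), and Crebbp was higher.

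Genes that set hormone access were called in both directions, and those of the stress axis only as lower. Of 5 tested access genes, 1 rose and 3 fell in wild type after LPS, beside 11.4% and 13.9% of all tested genes. H6pd, which supplies cofactor to the enzyme that regenerates active glucocorticoid, rose by 0.89 ± 0.096. The enzyme itself, Hsd11b1, was at -0.20 ± 0.065 in wild type (adjusted p = 0.034) and at 0.14 in the brains labelled Lcn2-/- (adjusted p = 0.092), with an interaction of 0.34 ± 0.092 (adjusted p = 0.036). Abcb1a, an efflux pump of the blood-brain barrier that exports glucocorticoids, was at -1.52 ± 0.11. Between genotypes after LPS, Abcb1a differed by -0.38 (adjusted p = 0.029), lower in the brains labelled Lcn2-/-, and its paralog Abcb1b by 0.44 ± 0.12 (adjusted p = 0.025). The mineralocorticoid receptor gene Nr3c2, which binds the same hormone, was at -0.29 ± 0.051 (adjusted p = 0.00046). Of 6 tested stress-axis genes, 0 rose and 2 fell, the receptor gene Crhr1 at -0.56 ± 0.046 (adjusted p = 1.5e-07) and the binding protein gene Crhbp at -0.18 (adjusted p = 0.037), and none was called between genotypes.

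Relatives of the members, and lists for other regulators of the same genes, were read in the same way. For these lists, the shares over all tested genes are 11.4% higher and 13.9% lower after LPS in wild type. Between genotypes after LPS they are 7.04% and 8.74%. Of 19 tested family members, 7 were called higher and 2 lower after LPS in wild type, among them Plin5 at 1.31 ± 0.21 (adjusted p = 0.00024) and Cdkn1c at -0.57 ± 0.071. The called genes Tsc22d4, Sgk3 and Fkbp4 also stand on lists above, so these counts are not independent. After LPS, the lipid droplet gene Plin3 was lower in the brains labelled Lcn2-/- at -0.31 ± 0.058 (adjusted p = 0.0025), while Plin2 and Arrdc4 were higher. The Plin5 interaction was -1.09 ± 0.30 (adjusted p = 0.038), at levels near the filter. Its geometric means in wild type were 0.218 RPKM after saline and 0.539 RPKM after LPS. In the brains labelled Lcn2-/- they were 0.314 and 0.367 RPKM, so only the wild type LPS mean was above 0.5 RPKM.

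Of 12 tested p53 targets, 4 were called higher and 3 lower in wild type after LPS, beside the rise of Cdkn1a. Trp53inp1 was at 0.95 ± 0.076 and Ccng1 at 0.43 ± 0.056, while Bax was at -0.19 ± 0.04 (adjusted p = 0.0027). After LPS, 0 of the 12 were higher and 2 lower in the brains labelled Lcn2-/-, beside 7.04% and 8.74% of all tested genes.

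Of 16 FoxO and PPAR targets, the regulators best known for Pdk4 besides the glucocorticoid receptor, 8 were called higher and 1 lower in wild type after LPS. After LPS, 1 was higher and 4 lower in the brains labelled Lcn2-/-, among them Trib1 at 0.67 ± 0.11 (adjusted p = 0.0013) and Ccng2 at -0.55 ± 0.072 (adjusted p = 0.00018). The interaction was called negative for 4 of the 16, beside 4.92% of all tested genes. Angptl4, Bcl6 and Klf15 stand on this list and on the glucocorticoid list, so the 2 counts are not independent.

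Markers of several cell types moved with LPS and some with genotype, and their part in the values above was not tested. Beside the counts below, 11.4% of all tested genes were called higher and 13.9% lower after LPS in wild type. The shares were 20.7% and 27.7% after LPS in the brains labelled Lcn2-/-, and 7.04% and 8.74% between genotypes after LPS. The summed RPKM of 10 endothelial markers was 86.4 to 95.2 in wild type saline libraries, 72.6 to 85.4 in labelled Lcn2-/- saline libraries, 67.5 to 73.9 in wild type LPS libraries and 60.6 to 71.7 in labelled Lcn2-/- LPS libraries. After LPS in wild type, 3 endothelial markers were called higher and 5 lower. Between genotypes after LPS, 1 endothelial marker was called higher and 3 lower in the brains labelled Lcn2-/-. For 9 pericyte and smooth muscle markers the sums in the same order were 93.7 to 97.0, 85.6 to 94.2, 68.3 to 73.9 and 63.0 to 73.7, with 0 higher and 1 lower between genotypes after LPS.

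Astrocyte markers summed to 520 to 535 RPKM in wild type saline and 557 to 587 in wild type LPS libraries, and to 508 to 536 and 551 to 565 in labelled Lcn2-/- libraries, with 0 of 10 called higher and 1 lower between genotypes after LPS. Neutrophil markers summed to 3.27 to 9.53 and 11.1 to 17.8 RPKM in wild type and to 5.24 to 7.65 and 11.3 to 28.8 RPKM in labelled Lcn2-/- libraries. Of 10 neutrophil markers, 5 were tested. After LPS, 3 of them were called higher in wild type (S100a8, S100a9 and Retnlg) and 0 lower. In the brains labelled Lcn2-/- 3 were called higher (S100a8, S100a9 and Ngp) and 0 lower. None was called between genotypes. Mpo and Elane, which were not tested, had medians of at most 0.0336 RPKM after LPS. Choroid plexus markers summed to 480 to 501 RPKM in wild type saline libraries, 480 to 659 in labelled Lcn2-/- saline libraries, 420 to 460 in wild type LPS libraries and 468 to 478 in labelled Lcn2-/- LPS libraries, with 0 of 9 called higher and 1 lower between genotypes after LPS. Of 10 microglia markers, 3 were called higher and 6 lower after LPS in wild type, and 3 higher and 7 lower in the brains labelled Lcn2-/-. Blood markers, which are hemoglobin genes and Alas2, summed to 4.91 to 11.8 RPKM in wild type saline, 4.21 to 7.47 in labelled Lcn2-/- saline, 3.72 to 5.35 in wild type LPS and 5.54 to 8.66 in labelled Lcn2-/- LPS libraries, so the LPS groups did not overlap. Of 4 tested blood markers, Hba-a1 was called lower after LPS in wild type and higher in the brains labelled Lcn2-/- after LPS. Between genotypes after LPS, 1 microglia marker was called higher and 1 lower, 1 oligodendrocyte marker higher and 1 lower, and 1 neuron marker higher and 0 lower, each of 10. Slc1a2 and Gjb6 stand on both the astrocyte list and the list of glucocorticoid-induced genes.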

How the data were processed

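RNA-seq of 16 libraries was analysed from 1 table that the authors deposited as log2 RPKM after conditional quantile normalization. The build is mm10 per the submitters' processing notes. Aligner, counter and annotation: not given in the sources used here. Of 33289 IDs, 32695 matched a symbol in GENCODE vM21 (GRCm38), and 0 per-sample columns were unused. Groups came from the genotype and injection labels. A gene was tested where log2 RPKM reached -1 (0.5 RPKM) in at least 3 samples, which removed 15940 IDs. limma 3.58.1 (R 4.3.3) was fitted over all 4 groups with a trended prior, after the code was tested on simulated data. In that simulation 8.94% of the interaction calls were false, against 2.45% to 4.52% in the other comparisons. Members and lists were chosen with earlier results of these data known. All members are named. From each list the rule names the 2 called genes with the largest change in each direction in the wild type LPS comparison and between genotypes after LPS, and the most expressed gene called in neither; genes called in the interaction, and those that complete a short count, were named after their values were seen. A gene that the rule names is not reported here. Promoter sequences are RefSeq's, GRCm38.p6. Alternatives were log2(RPKM + 0.5), no filter, a filter of 1 RPKM in 4 samples, no trend, only the 2 groups compared, median centring, removal of GC and length trends, and leaving out each library.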

Additional observations from a re-analysis of the deposited data

Results flagged for a closer look

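In 4 of 40 groups of 4 libraries, 1 library lay apart from the other 3 by more than Dixon's 95% critical value for 4 values on the log2 scale; chance marks about 1 in 20 groups. Nr3c1 was at 5.49 RPKM in labelled Lcn2-/- LPS replicate 4, below the others of its group. Fkbp5 at 4.68 RPKM and Sgk1 at 12.9 RPKM were low in labelled Lcn2-/- saline replicate 4, the library with more genes detected than the other 15. Zbtb16 was at 2.25 RPKM in wild type saline replicate 2, above the others.

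The LPS change differed between genotypes by the interaction test (labelled Lcn2-/- minus wild type, log2, limma) for 5 targets: Fkbp5 at -0.44, Tsc22d3 at -0.50, Plin4 at -0.76, Pdk4 at -0.56 and Arrdc2 at -0.94. All 5 remained called without labelled Lcn2-/- saline replicate 4.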

How the results depend on the processing

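The table holds no counts, so counting error is unknown, and 4 libraries per group limit the precision. No paired analysis was possible because the labels give no replicate numbers shared between groups. Under 23 alternatives, 16 of which left out 1 library each, all 10 members were called after LPS in both genotypes and 0 after saline between genotypes. The number called between genotypes after LPS was 3 to 6 (4 as reported) and for the interaction 4 to 5 (5 as reported). Of 1140 single values, 1117 kept direction and side of the threshold, 14 lost the call (the Fkbp5 difference after LPS and the Plin4 interaction), 2 gained one, and 7 changed sign. The sign changes were in uncalled values near 0, each on leaving out 1 library: the Nr3c1 genotype difference after saline ranged from -0.0034 to 0.064, that of Pdk4 from -0.0055 to 0.060, and the Cdkn1a interaction from -0.079 to 0.026. The cause was not tested.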
